A study of Mus musculus with 7 samples.

Results

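The subject is a set of 97 genes, of 9009 named genes measured, whose signal was lower on both arrays of day 3 than on each of the other 5 arrays of the series. They were chosen from the measured values. Each gene was ranked by its gap, the distance on the log2 scale between the lowest of the 5 arrays not of day 3 and the higher of the 2 day 3 arrays, and the 100 widest gaps were kept. Of these, 3 genes were set aside by symbol because they encode ribosomal proteins of the cytosol or the mitochondria (Mrpl2, Rps25 and Mrps34). The low level on day 3 is therefore what defines the set, and it is given below as a description with no test.

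The series measured brain RNA of 5-week-old female C57BL/6 mice on Illumina bead arrays, on which probes on beads capture biotin-labelled cRNA. The arrays were 1 for each dose of an aqueous extract of Ephedra herba (1250 and 50 mg/kg by mouth, once daily) after 1, 3 and 10 days of dosing, and 1 for untreated control mice. Ephedra herba, the dried stems of Ephedra, contains ephedrine and related alkaloids that act on the sympathetic nervous system. No condition had a second array, how many animals were behind each RNA is not stated, and the 2 day 3 arrays differ in dose. A low signal on day 3 can thus not be told apart from a property of those 2 RNA samples or arrays, and in tissue RNA fewer cells of a type and less RNA per cell cannot be told apart.

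Values are log2 intensities after quantile normalization, so a difference of 1 is a doubling. The log base is not stated in the sources used here. Base 2 was taken because it is the usual one for such arrays, and every fold below depends on it. Deposited values reached from -0.88 to 9.15, and the medians of the arrays lay between 1.87 and 1.93. The brain markers chosen, 1 per cell type, stood above the median of all genes (2.19) on all 7 arrays. The glutamate transporter gene Slc17a7 of excitatory neurons lay between 5.76 and 6.24, and Gad1 of GABA neurons between 5.23 and 5.89. The astrocyte water channel gene Aqp4 lay between 4.01 and 4.94, Mbp of myelin between 8.27 and 8.47, and the microglial receptor gene Cx3cr1 between 2.86 and 3.70. Not every marker of these cells was as bright. Gfap of astrocytes (1.22 to 1.97), Olig2 of oligodendrocytes (-0.15 to 0.40) and Tyrobp of microglia (1.31 to 1.92) lay below that median on all 7 arrays.

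The 97 genes are described by roles, which were assigned by hand after their values had been seen, and the share of all measured genes in each role was not counted. Each value is that of the gene's brightest probe. Of 32 other probes of these genes, 17 lay below every other array on day 3. Others, such as those of Ubxn6, Cope, Chmp4b and Ddit3, did not, as given further below. In transcription, general factors and coactivators place and release RNA polymerase II at gene starts, and nucleolar proteins and RNA-processing enzymes then mature its products and the ribosome. Lysosomes and the endoplasmic reticulum break down or sort proteins, which neurons rely on because they are not replaced. Motile cilia, carried in the brain by the ependymal cells that line the ventricles, beat through a microtubule core whose radial spokes regulate the motor proteins.

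Promoter sequences are shown for the 4 genes with the widest gaps that have an entry in the RefSeq promoter table (build GRCm38.p6), because genes chosen for a shared pattern invite the question of shared promoter letters. Each window runs 5′ to 3′ on the gene's strand, from 250 bases before to 50 bases after the listed start. Capitals mark matches on either strand to any of 6 short motifs, namely the TATA box TATAAA, the CAAT box CCAAT, the GC box GGGCGG, the E-box CACGTG, the cAMP-response letters TGACGT and the ETS-factor letters CCGGAA. Neighbouring matches merge into 1 run of capitals, as for the 2 matches to GGGCGG in Rsph3a. The windows are chr12:8921057-8921356 (plus strand) for Laptm4a, chr17:7945364-7945663 (plus strand) for Rsph3a, chr7:44246472-44246771 (plus strand) for 2410002F23Rik and chr19:6060957-6061256 (plus strand) for Znhit2.
Laptm4a: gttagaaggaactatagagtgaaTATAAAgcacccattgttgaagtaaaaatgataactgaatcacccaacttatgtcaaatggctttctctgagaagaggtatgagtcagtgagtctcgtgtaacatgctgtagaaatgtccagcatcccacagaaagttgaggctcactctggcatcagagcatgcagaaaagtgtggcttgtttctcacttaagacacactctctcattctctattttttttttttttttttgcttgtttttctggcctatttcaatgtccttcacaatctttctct
Rsph3a: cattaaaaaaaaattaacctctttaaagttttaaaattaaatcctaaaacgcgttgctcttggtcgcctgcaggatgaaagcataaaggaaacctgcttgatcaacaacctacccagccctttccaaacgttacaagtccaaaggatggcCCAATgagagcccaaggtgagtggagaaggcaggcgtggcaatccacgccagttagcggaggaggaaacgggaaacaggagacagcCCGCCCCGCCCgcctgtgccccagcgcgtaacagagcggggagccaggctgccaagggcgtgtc
2410002F23Rik: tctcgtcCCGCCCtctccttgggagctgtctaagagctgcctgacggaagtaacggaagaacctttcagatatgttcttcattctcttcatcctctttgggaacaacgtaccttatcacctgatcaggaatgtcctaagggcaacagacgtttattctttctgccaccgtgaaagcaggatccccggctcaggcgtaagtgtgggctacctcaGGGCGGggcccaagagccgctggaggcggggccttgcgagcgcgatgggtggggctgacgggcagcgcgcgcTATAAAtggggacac
Znhit2: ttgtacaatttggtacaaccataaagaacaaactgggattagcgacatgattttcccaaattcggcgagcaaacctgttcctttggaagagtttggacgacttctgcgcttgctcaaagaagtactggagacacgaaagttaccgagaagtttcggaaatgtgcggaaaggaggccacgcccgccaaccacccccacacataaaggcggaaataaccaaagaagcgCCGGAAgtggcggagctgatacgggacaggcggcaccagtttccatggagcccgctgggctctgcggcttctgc

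None of the 6 motifs matched in all 4 windows. Each of the 4 windows had less G and C than the median over all genes. That of Laptm4a was 38.0% G and C with a single TATAAA match, that of Rsph3a 52.7% with 1 CCAAT and 2 GGGCGG matches, that of 2410002F23Rik 57.3% with 1 TATAAA and 2 GGGCGG matches, and that of Znhit2 52.3% with a single CCGGAA match. A window was listed for 82 of the 97 genes and for 7311 of all 9009 genes, and the first listed was used where a gene had several. Median G and C content was 58.3% in the 82 windows and 61.0% in the 7311. GGGCGG occurred in 57 of the 82 windows (69.5%, beside 64.4% of all), CCAAT in 35 (42.7%, beside 38.6%), CCGGAA in 26 (31.7%, beside 26.5%), TGACGT in 10 (12.2%, beside 11.9%), CACGTG in 8 (9.76%, beside 9.92%) and TATAAA in 5 (6.1%, beside 7.6%). These are matches of letters and not shown to be binding sites.

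On day 3 the 97 genes were lower than their mean over the other 5 arrays by a median of 0.53 on the log2 scale (a difference of -0.53, or 1.45-fold), with a range of -0.76 to -0.36. The median over all 9009 genes was -0.036. The gap ranged from 0.30 to 0.63 with a median of 0.35, so even the closest of the other arrays stood 1.28-fold above day 3 in the median gene. Both day 3 arrays lay below all other arrays for 1824 of the 9009 genes (20.2%), and above all others for 1431 (15.9%). By the mirrored rule, with no gene set aside by symbol, the 100 genes raised most clearly on day 3 had gaps of 0.61 to 1.56. Their median gap was 0.75, and the amino acid transporter gene Slc7a14 led them. Both lists were ranked by their gaps, so these values only describe them.

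**Figure D1:**
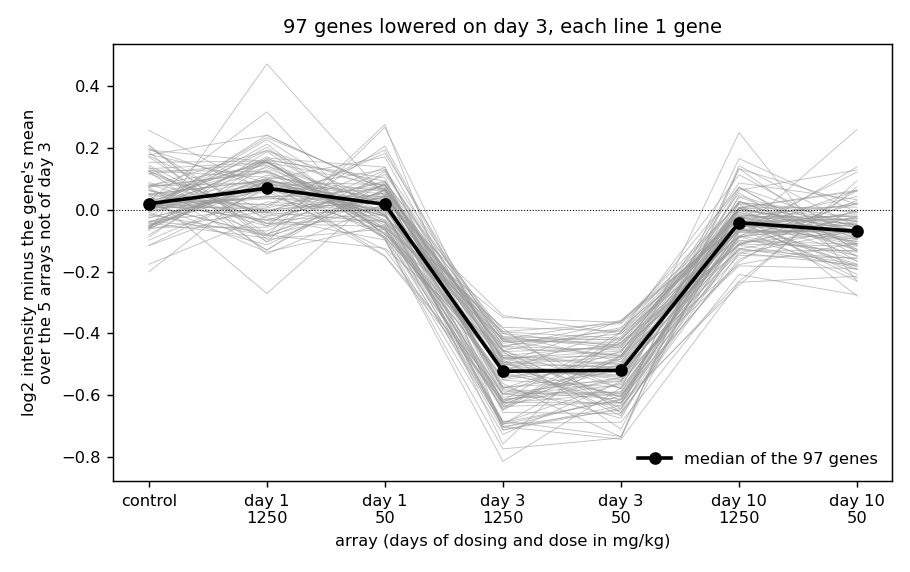
Each grey line is 1 of the 97 genes and shows its log2 intensity on each of the 7 arrays minus its mean over the 5 arrays not of day 3, in order of days with 1250 left of 50 mg/kg. The black median line stands at -0.52 on both day 3 arrays and between -0.070 and 0.070 on the other arrays, and the low day 3 values are what the genes were chosen by.

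Cilia and microtubules gave 8 genes, with gaps from 0.31 to 0.63. Tubg1, which encodes the gamma-tubulin that nucleates microtubules at the centrosome, had the widest gap of all. Its log2 intensity was 2.89 and 2.84 on day 3 at 1250 and 50 mg/kg, against 3.52 in the control, 3.65 and 3.55 on day 1 and 3.60 and 3.55 on day 10. The other 5 arrays covered 0.13 between them, and both day 3 values stood 0.63 or more below the lowest. Rsph3a, a radial spoke protein of the ciliary core with a near-identical neighbour, Rsph3b, that its probe may also read, had 2.27 and 2.34 on day 3, against 2.97 in the control, 2.90 and 3.26 on day 1 and 2.88 and 2.92 on day 10.

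The set held 2 further radial spoke genes, and how many such genes were measured was not counted. Rsph1 had 2.14 and 2.20 on day 3, against 2.73 in the control, 2.96 and 2.79 on day 1 and 2.58 and 2.54 on day 10. Rsph9 had 2.18 and 2.16 on day 3, against 2.68 in the control, 2.68 and 2.87 on day 1 and 2.63 and 2.51 on day 10. The 3 spoke genes lay between 2.14 and 2.34 on day 3 and between 2.51 and 3.26 elsewhere. That each was lower on day 3 was set by the rule. The other members of this role were B9d2 of the ciliary transition zone, the dynein light chain gene Dynlrb2, the dynactin subunit gene Actr1a and Fsd1, whose product binds microtubules, with differences of -0.58, -0.59, -0.42 and -0.59 between day 3 and the other 5 arrays.

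Markers of ependymal and choroid plexus cells were measured beside these genes. Foxj1, the transcription factor that directs motile cilia, had 0.55 and 0.49 on day 3, against 0.41 in the control, 0.41 and 0.33 on day 1 and 0.36 and 0.26 on day 10. It stood higher on day 3, but near the floor of the values and by a gap of only 0.081. In the list of choroid plexus and ependymal markers, 8 of 11 genes were measured. Of the 8, 3 were lower on both day 3 arrays than on all others (Folr1, Clic6 and Calml4, at -0.46, -0.31 and -0.25). Only 1, Foxj1, was above all others, and the shares over all genes were 20.2% below and 15.9% above. On average 5 of the 8 were lower on day 3, with a median difference of -0.088. The summed linear level of the 8 was 236 to 242 on day 3, against 176 to 258 on the other arrays, and Ttr made up most of it. The part of cell composition in the ciliary values was not tested.

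Lysosome, autophagy and membrane traffic gave 12 genes, the largest role. Laptm4a, a membrane protein of late endosomes and lysosomes, had the largest difference from the other arrays of all 97, at -0.76. It had 3.51 and 3.55 on day 3, against 4.41 in the control, 4.26 and 4.19 on day 1 and 4.42 and 4.15 on day 10. Cln3 and Ctns encode the lysosomal membrane proteins mutated in juvenile Batten disease and in cystinosis. Cln3 had 1.94 and 1.81 on day 3, against 2.37 in the control, 2.50 and 2.45 on day 1 and 2.42 and 2.35 on day 10. Ctns had 1.99 and 2.02 on day 3, against 2.37 in the control, 2.56 and 2.41 on day 1 and 2.57 and 2.52 on day 10. In both genes the control was the nearest or second nearest to day 3.

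The remaining genes of this role were the lysosomal peptide transporter gene Abcb9 (a difference of -0.57), the autophagy protease gene Atg4b (-0.56), Chmp4b of the ESCRT-III membrane-cutting complex (-0.56), the coatomer subunit gene Cope (-0.46), Ap5s1 of the AP-5 adaptor (-0.55), Rabggta, a subunit of the enzyme that puts lipid anchors on Rab proteins (-0.57), Zfyve27 (-0.50), Pheta1 (-0.45) and Scamp2 (-0.37). Scamp2, a carrier membrane protein, was the steadiest of the 97 outside day 3. It had 3.53 and 3.47 on day 3, against 3.89 in the control, 3.87 and 3.89 on day 1 and 3.85 and 3.85 on day 10. A list of 22 other lysosomal enzymes and membrane proteins, which holds none of these 12 genes, had 16 measured. Of the 16, 3 lay below and 3 above all other arrays on day 3, beside 20.2% and 15.9% of all genes, and their median difference was -0.026, beside -0.036 over all genes.

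RNA processing and ribosome assembly gave 11 genes. Znhit2, a zinc-finger protein that works with the U5 splicing particle and the R2TP chaperone complex, had 2.96 and 2.96 on day 3, against 3.68 in the control, 3.58 and 3.64 on day 1 and 3.59 and 3.46 on day 10. Pih1d1, a subunit of R2TP itself, had 2.37 and 2.40 on day 3, against 2.95 in the control, 3.19 and 3.01 on day 1 and 2.82 and 2.77 on day 10. Dxo, an enzyme that removes faulty RNA caps, had 1.42 and 1.52 on day 3, against 2.12 in the control, 2.22 and 2.14 on day 1 and 1.96 and 2.19 on day 10.

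Ppie and Cactin encode splicing factors. Ppie had 1.62 and 1.63 on day 3, against 2.27 in the control, 2.31 and 2.07 on day 1 and 2.18 and 2.26 on day 10. Cactin had 2.44 and 2.26 on day 3, against 2.96 in the control, 3.06 and 2.89 on day 1 and 2.85 and 2.86 on day 10, and its day 3 arrays differed by 0.18 between doses. Of the ribosome assembly genes, Heatr3 and Rrp15 had the widest gaps. Heatr3 had 1.29 and 1.32 on day 3, against 1.80 in the control, 1.74 and 1.86 on day 1 and 1.74 and 1.75 on day 10. Rrp15 had 1.54 and 1.54 on day 3, against 2.04 in the control, 2.13 and 1.96 on day 1 and 2.02 and 2.06 on day 10. The gaps of the 4 genes, by which they were chosen, were 0.41 to 0.44. Nol10 of the nucleolus and Rbfa of the mitochondrial ribosome differed by -0.46 and -0.53 between day 3 and the other 5 arrays. Tut1, a uridyl transferase of U6 RNA, and Aimp2, a scaffold of the tRNA synthetase complex, differed by -0.53 and -0.54. A list of 39 other splicing factors, which does not hold Ppie or Cactin, had 29 measured. Of those 29, 8 were below and 1 above all other arrays on day 3, beside 20.2% and 15.9% of all genes, and their median difference was -0.033.

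Transcription and chromatin gave 11 genes. Tada2a, an adaptor of the acetyltransferase complexes ATAC and related coactivators, had 1.26 and 1.24 on day 3, against 1.84 in the control, 1.74 and 1.92 on day 1 and 1.78 and 1.97 on day 10. Nelfa, a subunit of the factor that holds paused RNA polymerase II, had 2.16 and 2.11 on day 3, against 2.60 in the control, 2.60 and 2.71 on day 1 and 2.67 and 2.72 on day 10. Rela, the p65 subunit of NF-kappa-B, had 2.80 and 2.80 on day 3, against 3.19 in the control, 3.42 and 3.29 on day 1 and 3.35 and 3.12 on day 10. The other 8 were Taf11 and Taf15, Uxt, Tle6, Gatad1, Thap3, Zfp316 and the stress-induced factor gene Ddit3, with differences of -0.58 to -0.39.

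A list of 27 genes of RNA polymerase II, Mediator and the general factors had 16 measured; it does not hold Taf11 or Nelfa. Of these 16, 8 lay below all other arrays on day 3 and 2 above, beside 20.2% and 15.9% of all genes, and 13 were lower on average on day 3. The 8 included Med12 (-0.49), Gtf2f1 (-0.42), Taf10 (-0.39), Med25 (-0.31) and Polr2h (-0.31), and the 2 above were the polymerase subunit gene Polr2g (0.89) and Med1 (0.80). The list's median difference was -0.11, beside -0.036 over all genes.

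Genome maintenance gave 4 genes. Ddb1, the adaptor of the CUL4 ubiquitin ligase that recognises DNA damage, had 2.34 and 2.30 on day 3, against 2.98 in the control, 3.52 and 3.09 on day 1 and 2.81 and 2.83 on day 10. It varied most of the 97 outside day 3 (SD 0.29 over the 5 arrays, which are different conditions and no replicates), with day 1 at 1250 mg/kg far above the rest. The replication genes Mcm5 and Rpa2 differed by -0.49 and -0.56 between day 3 and the other 5 arrays, and Acd, a protein of the telomere cap, by -0.43.

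**Figure D2:**
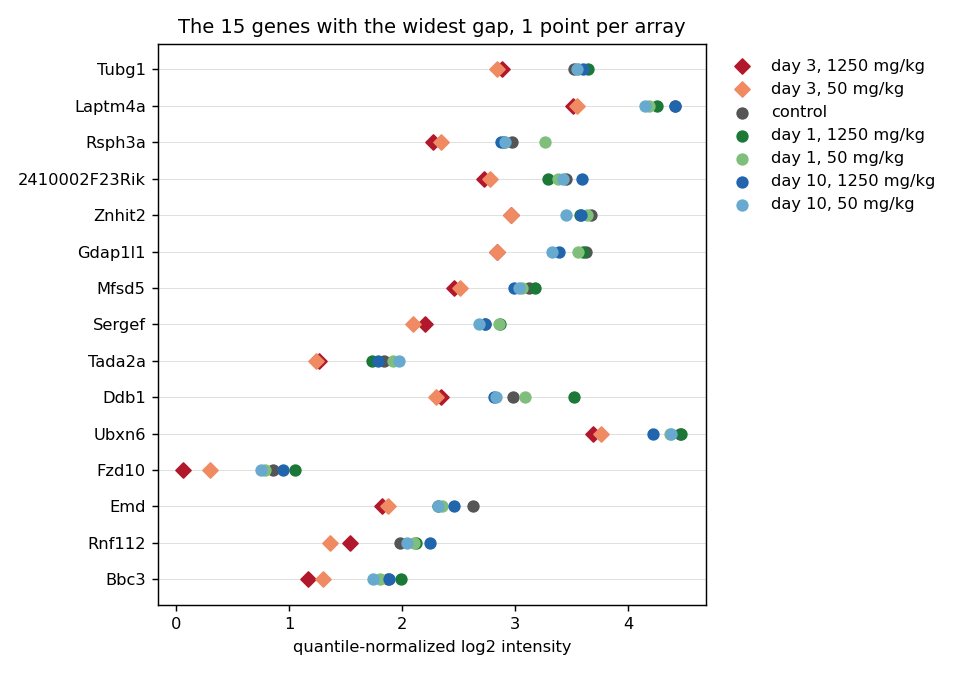
Quantile-normalized log2 intensity of the 15 genes with the widest gaps, with diamonds for the 2 day 3 arrays and circles for the other 5. In each gene both diamonds lie to the left of every circle, as the rule requires. The 2 doses of day 3 lie close together except in Fzd10, Rnf112, Bbc3 and Sergef.

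Protein quality control and modification gave 7 genes. Ubxn6, a cofactor of the p97 segregase, had 3.69 and 3.76 on day 3, against 4.46 in the control, 4.47 and 4.37 on day 1 and 4.22 and 4.38 on day 10. Proteins that send misfolded proteins of the endoplasmic reticulum to degradation, Edem2 and the ubiquitin ligase gene Rnf185, differed by -0.36 and -0.45, and Edem2 had the smallest difference of the 97. Dpp8, Dpm2, Zdhhc12 and Ube2l6 differed by -0.55, -0.51, -0.42 and -0.64, the last from levels near the floor of the values (-0.46 and -0.29 on day 3, against 0.03 to 0.51 elsewhere).

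Metabolic enzymes gave 8 genes. Pgam2, the muscle form of the glycolytic phosphoglycerate mutase, had 1.38 and 1.38 on day 3, against 2.25 in the control, 2.31 and 2.13 on day 1 and 1.86 and 1.79 on day 10. Its day 10 arrays thus lay between day 3 and the rest. In the list of 16 glycolytic genes, which does not hold Pgam2, 13 were measured, with a median difference of -0.063. Of the 13, 3 were below and 1 above all other arrays on day 3, beside 20.2% and 15.9% of all genes. Acy1, which frees amino acids from their acetyl group, the glutathione transferase gene Gsta4 and the fucose pathway genes Gmds and Fuom differed by -0.61, -0.52, -0.57 and -0.49. Dhrs4, Cyp4f13 and Ipmk differed by -0.52, -0.62 and -0.39. Of these, Dhrs4 lay near the floor of the values (-0.20 and -0.32 on day 3, against 0.13 to 0.52 elsewhere).

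Receptors and signalling gave 11 genes. Fzd10, a receptor for Wnt ligands, had 0.06 and 0.30 on day 3, against 0.86 in the control, 1.05 and 0.78 on day 1 and 0.95 and 0.75 on day 10. P2ry13, a receptor for ADP that marks microglia in the brain, had 1.39 and 1.47 on day 3, against 2.18 in the control, 2.25 and 2.03 on day 1 and 1.87 and 2.18 on day 10. Ntsr2, a neurotensin receptor carried mainly by astrocytes and the brightest of the 97, had 5.36 and 5.33 on day 3, against 5.95 in the control, 5.70 and 5.95 on day 1 and 5.82 and 5.72 on day 10.

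Bbc3 (Puma), an inducer of apoptosis, had 1.17 and 1.30 on day 3, against 1.88 in the control, 1.99 and 1.80 on day 1 and 1.89 and 1.75 on day 10. Myo9b, an unconventional myosin, had 2.53 and 2.52 on day 3, against 3.07 in the control, 2.97 and 3.07 on day 1 and 2.97 and 3.19 on day 10. In both genes the gap, by which they were chosen, was over 0.4.

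The other signalling genes were the chemerin gene Rarres2 (a difference of -0.60), the neurotrophic factor gene Nenf (-0.58), Shisa4 (-0.58), the G protein genes Rgs16 and Gng8 (-0.53 and -0.52) and the semaphorin gene Sema7a (-0.51). Markers of the cells that carry the 2 receptors were measured too. Of 13 microglial markers 8 had values, and 6 of the 8 were lower on average on day 3, with a median difference of -0.25. Of these 8, 4 were below and 1 above all other arrays on day 3, beside 20.2% and 15.9% of all genes. C1qa and Tyrobp differed by -0.41 and -0.29, and Cx3cr1 by 0.53, and the summed level was 61.6 to 63.9 on day 3, against 55.7 to 78.7 on the other arrays. Of 11 astrocyte markers 9 were measured, with 2 lower on average on day 3 and a median difference of 0.22. None was below and 1 was above all other arrays on day 3, beside 20.2% and 15.9% of all genes. The part of these cell types in the values of P2ry13 and Ntsr2 was not tested.

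Vessels, adhesion and barriers gave 4 genes. Acta2, the smooth muscle actin of vessel walls and the only one of the 97 in any of the 26 gene lists, had 0.74 and 0.76 on day 3, against 1.58 in the control, 1.35 and 1.37 on day 1 and 1.14 and 1.48 on day 10. Cd34, a marker of endothelial cells, had 0.20 and 0.56 on day 3, against 0.89 in the control, 1.05 and 0.99 on day 1 and 0.91 and 0.93 on day 10. Its difference between doses on day 3 (-0.36) was the largest of the 97. Parva, which links integrins to actin, and Slc22a8, an organic anion transporter of brain barriers, differed by -0.38 and -0.43. Slc22a8 lay near the floor of the values (-0.13 and -0.17 on day 3, against 0.17 to 0.42 elsewhere). Of 15 endothelial and mural markers 11 were measured, with a summed level of 68.8 to 75.3 on day 3, against 71.1 to 81.6 on the other arrays. Of these 11, 8 were lower on average on day 3, with a median difference of -0.16. On day 3, 1 of the 11 was below all other arrays (Acta2 itself) and 2 were above, beside 20.2% and 15.9% of all genes. The 2 above were Rgs5 of pericytes at 0.50 and Flt1 at 0.23. The part of vessel cells in the values of Acta2 and Cd34 was not tested.

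The remaining 21 genes had no shared role. 2410002F23Rik, whose function is not annotated here and whose promoter is printed above, had 2.73 and 2.78 on day 3, against 3.46 in the control, 3.29 and 3.38 on day 1 and 3.59 and 3.42 on day 10. Gdap1l1, a relative of the mitochondrial fission gene Gdap1, had 2.84 and 2.84 on day 3, against 3.63 in the control, 3.61 and 3.56 on day 1 and 3.39 and 3.32 on day 10. The molybdate transporter gene Mfsd5 had 2.46 and 2.51 on day 3, against 3.13 in the control, 3.18 and 3.06 on day 1 and 2.99 and 3.03 on day 10. In these genes day 3 stood 0.48 to 0.51 below the lowest other array. Sergef, which encodes a secretion-regulating guanine nucleotide exchange factor, had 2.20 and 2.10 on day 3, against 2.74 in the control, 2.86 and 2.86 on day 1 and 2.74 and 2.68 on day 10. Emd, which encodes emerin of the inner nuclear membrane, had 1.82 and 1.87 on day 3, against 2.63 in the control, 2.32 and 2.35 on day 1 and 2.46 and 2.32 on day 10. Rnf112, a RING-finger gene of neurons, had 1.54 and 1.36 on day 3, against 1.98 in the control, 2.13 and 2.10 on day 1 and 2.24 and 2.05 on day 10. The control was the highest array in Emd. The other 15 genes, such as Tmem97, Prr14, Prkrip1, Ccdc107 and Wfdc2, differed by -0.65 to -0.40 between day 3 and the other 5 arrays.

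Families read from the symbol were spread thinly: 3 of the 97 were Tmem, Ccdc or Fam genes (3.09%, beside 2.9% of all genes), 3 belonged to the ubiquitin system (3.09%, beside 1.79%), 1 was a zinc-finger gene (1.03%, beside 2.24%) and 1 a solute carrier (1.03%, beside 2.3%). At the edge of the set, the last gaps kept were 0.306 (Edem2), 0.305 (Fam166c) and 0.304 (Slc22a8). The first not kept were 0.302 (Stmn4), 0.302 (Mfsd10) and 0.301 (Bst2), so the boundary is not a natural break.

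Between the days on either side of day 3, the question is whether the genes stood at the same level after 10 days as after 1. None of the 97 passed the test (limma fitted over all 9009 genes and 7 arrays, with dose as a block, Benjamini-Hochberg adjusted p under 0.05), beside 1.93% of all genes. At an unadjusted p under 0.05 there were 8 (8.25%, beside 17.9% of all genes). All 8 were lower on day 10, while of all genes 8.44% were lower and 9.5% higher. The share of lower genes was thus near that of all genes. The differences between day 10 and day 1 leaned downward: 78 of the 97 were below 0, with a median of -0.096, beside -0.012 over all genes, of which 47.4% were above 0.

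Closest to the threshold was Ddb1, lower on day 10 by a difference of -0.48 ± 0.13 (standard error of the model, 2 arrays a day, limma adjusted p = 0.0656). It passed in deposited values, after median scaling, among the brighter probes and without the day 3 arrays. Pgam2 differed by -0.40 ± 0.12 (limma adjusted p = 0.0961) and passed in the deposited values. After these came Rsph1 (-0.31 ± 0.12), Pih1d1 (-0.31 ± 0.12), Acy1 (-0.28 ± 0.12), Dynlrb2 (-0.28 ± 0.12), Fsd1 (-0.27 ± 0.12) and Taf11 (-0.26 ± 0.12), with limma adjusted p-values from 0.18 to 0.26. Of the genes called over all 9009, 126 (1.4%) were higher and 48 (0.533%) lower on day 10. The rule used these arrays: by taking the lowest of the 5, it favoured genes whose levels outside day 3 lay close together (median range 0.25, beside 0.33 for all genes). The low count of calls among the 97 is therefore a description and shows nothing about stability between the days.

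Against the control, the day 1 arrays were near level and the day 10 arrays slightly low. At 1250 and 50 mg/kg, 40 and 48 of the 97 were below the control on day 1 (median difference 0.040 and 0), and 71 and 74 on day 10 (median -0.066 and -0.10). Of all genes, 49.6% and 47.3% were below the control on day 1 and 51.3% and 50.5% on day 10. On day 3 all 97 were below it by the rule (median -0.57 and -0.56). On each of the 2 arrays 45 of the 97, not necessarily the same genes, were lower by 1.5-fold or more. Of all genes 2.38% and 1.93% were, and the rule favoured such falls. All these values share the 1 control array. With the 4 arrays of days 1 and 10 set against it, limma called none of the 97, beside 0% of all genes, and 1 reached an unadjusted p under 0.05: Ddit3, at -0.32 ± 0.14 (standard error of the model, limma adjusted p = 0.91). These are the 5 arrays whose lowest value set the gap, so wide differences among them were selected against and the count is a description.

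In the comparison of the 3 arrays at 1250 mg/kg with the 3 at 50 mg/kg, with day as a block, limma called none of the 97, beside 0.144% of all genes, and none reached an unadjusted p under 0.05, beside 5.29% of all genes. The differences ran from -0.16 to 0.19 with a median of 0.017, against a median standard error of 0.098. The rule used all 6 treated arrays and favoured genes with a small spread between doses, so these counts describe the 97 and do not show that dose had no effect on them. The largest difference was that of Rarres2 at 0.19 ± 0.10 (standard error of the model, limma adjusted p = 0.92).

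The 2 doses lay close together on day 3 in particular, although the rule, which took the higher of the pair, favours that. The median difference between 1250 and 50 mg/kg on day 3 was -0.0064, with 45 genes higher and 52 lower at 1250 mg/kg, and 66 of 97 differed by less than 0.1, beside 52.4% of all genes. The ends were Cd34 at -0.36, with 0.20 at 1250 and 0.56 at 50 mg/kg, and Abtb1 at 0.27, with 1.99 at 1250 and 1.72 at 50 mg/kg. On day 1, 40 of 97 differed by less than 0.1 (33.8% of all genes), and on day 10, 60 did (45.6%). All genes, too, thus differed least between doses on day 3.

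A second probe of the same gene reads RNA of that gene through another sequence, and the rule did not use it. Whether the probes of a gene read the same transcript forms was not checked. Of the 97 genes, 26 had 32 other probes with values. On day 3, 26 of the 32 were lower on average than on the other 5 arrays (81.2%, beside 56.6% of the 3141 other probes of all genes), and 17 were below every other array (53.1%, beside 18.8%). Their median difference was -0.18, against -0.54 for the brightest probes of the same genes, and the other probes were dimmer, with a median level of 1.84 against 2.96. These probes were read on the same arrays and are no independent samples.

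Agreement between probes differed by gene. The other probe of 2410002F23Rik had 2.71 and 2.71 on day 3, against 3.31 in the control, 3.60 and 3.51 on day 1 and 3.45 and 3.30 on day 10, a difference of -0.73 beside -0.68 for the brightest. That of Uxt had 2.34 and 2.41 on day 3, against 3.01 in the control, 2.84 and 3.10 on day 1 and 2.98 and 2.82 on day 10. That of Ppie differed by -0.58. The 6 other probes that were higher on average on day 3 belonged to Zdhhc12 (0.22), Gatad1 (0.22), Ddit3 (0.18), Ubxn6 (0.094), Rnf185 (0.056) and Chmp4b (0.032). A further probe of Ubxn6 differed by -0.13, that of Tada2a by -0.013, those of Acta2 by -0.32 and -0.087, and the 3 of Cope by -0.17, -0.069 and -0.017, each with day 3 overlapping the other arrays. For these genes and for Zfp316 no second probe set both day 3 arrays below all others.

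**Figure D3:**
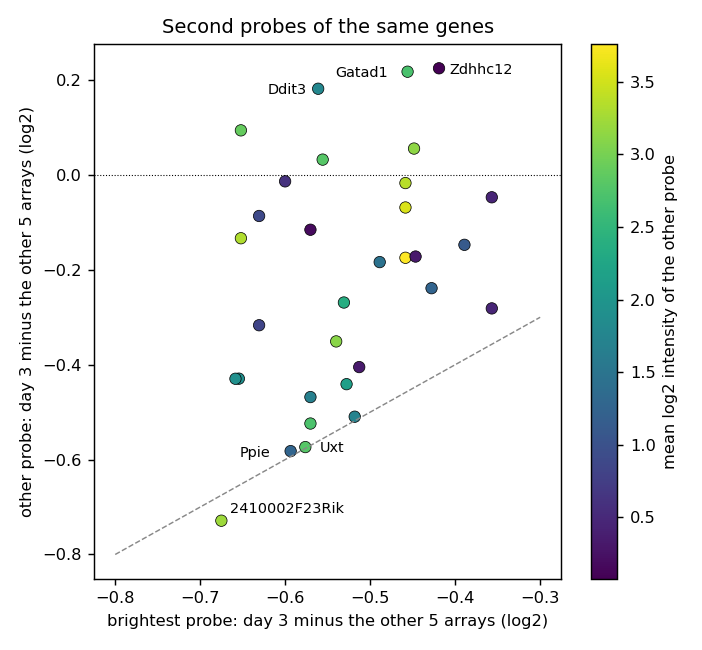
Each point is 1 of the 32 other probes of 26 of the genes. Horizontal and vertical axes give the difference between day 3 and the other 5 arrays (log2) for the brightest and the other probe, the colour gives the other probe's mean log2 intensity, and the dashed line marks equal differences. Most points lie above the dashed line, 26 of 32 below 0, and 2410002F23Rik, Ppie and Uxt on or near the line.

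The 97 genes were short. Their median length in the genome, introns included, was 10693 bases by the RefSeq annotation, beside 22328 bases for all 9009 genes and 28762 bases for the 100 genes raised by the mirrored rule. Of the 97, 42 were under 10 kb (43.3%, beside 26.8% of all genes and 21 of the 100 raised), and 4 were over 100 kb (4.12%, beside 13.3% of all genes and 20 of the 100 raised). The shortest were Gm5801 with 1189 bases, Znhit2 with 1262, Mageh1 with 1398, Nrn1l with 1457 and Pgam2 with 2160. The 4 long ones were Gmds with 519180, Megf11 with 328563, Sergef with 199738 and Parva with 163983 bases.

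The same gradient ran through all genes on day 3. Ordered by genomic length and split into 4 equal bins, the share of genes below all other arrays on day 3 was 29.6%, 23.3%, 16.9% and 11.2% from the shortest to the longest bin. The share above all others was 9.5%, 12.6%, 17.5% and 23.9%. The median difference between day 3 and the other 5 arrays was -0.10, -0.070, -0.015 and 0.043. Of the 97 genes, 40, 31, 20 and 6 fell into the 4 bins. Signal level followed no such order: bins by mean level, from dim to bright, had 14.7%, 23.7%, 22.7% and 19.9% of genes below all other arrays on day 3 and held 9, 29, 45 and 14 of the 97.

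**Figure D4:**
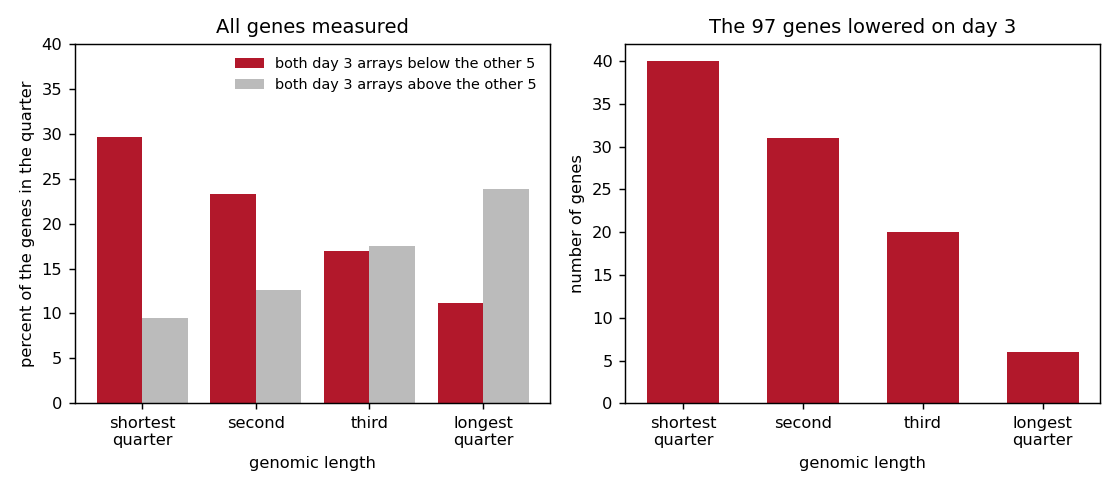
Left, the percentage of genes in each of 4 equal bins of genomic length whose day 3 arrays both lay below (red) or both above (grey) the other 5 arrays. Right, the number of the 97 genes in each bin, which falls as genomic length grows (40, 31, 20 and 6), while in the left panel the red bars fall and the grey bars grow.

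The genes were spread over the genome, on 19 chromosomes of the 21 with measured genes. Chromosomes 5 and 7 held 10 each (10.3%, beside 6.63% and 7.63% of all genes), chromosomes 2, 11 and 17 held 9 each (9.28%, beside 7.79%, 8.58% and 4.94%), chromosome 19 held 8 (8.25%, beside 3.63%), and chromosome 16 held none (beside 3.09%).

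Transcripts of other tissues also differed between arrays. Of 17 liver genes 11 were measured. Of the 11, 9 were lower on average on day 3, with a median difference of -1.04. On day 3, 1 lay below and 0 above all other arrays, beside 20.2% and 15.9% of all genes. Apoa2 had 0.87 and 0.05 on day 3, against 0.50 in the control, 4.85 and 0.30 on day 1 and 3.68 and 2.49 on day 10. All 4 red cell and neutrophil genes and all 4 heart muscle genes measured were lower on average on day 3, with median differences of -0.50 and -0.62. Yet 0 of the former and 1 of the latter lay below all other arrays on day 3, and 0 of either above. Single high arrays weigh on such averages. Myl2 had 0.36 and 0.59 on day 3, against 2.95 in the control, 0.30 and 0.45 on day 1 and 0.41 and 2.87 on day 10. The summed level of the red cell and neutrophil genes was 137 to 201 on day 3, against 193 to 375 elsewhere, and that of the heart muscle genes 17.7 to 19.6, against 19.2 to 46.5, so the ranges met or overlapped. None of these genes is among the 97, and their part in the values of the 97 was not tested.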

How the data were processed

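The authors' deposited log2 intensities were used for all 7 arrays; the unit is read from the values, since neither the base, the background step nor the reference level is given in the sources used here (log10 would make the range on a single array 5.62e+09-fold). Values were present on all arrays for 13304 of the 25697 probes (51.8%), and on no array for 12393. A table of linear intensities with 7 columns was not used, because its column names match no sample label. The arrays were quantile normalized (limma 3.58.1, R 4.3.3). The platform annotation gave 12150 probes a single symbol, 0 several and left 1154 unnamed, and all 12150 were matched by Entrez number to RefSeq (GRCm38.p6). Each of the 9009 genes was read by its brightest probe, and 2273 had several.

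The model had the day (control, 1, 3 or 10) and the dose as terms, with lmFit and eBayes with an intensity trend, 2 residual and 14.1 prior degrees of freedom. Its residual is the difference of the dose effect between days, so standard errors rest mostly on variance shared by all genes, and p-values measure the spread between these arrays. On data simulated for the 9009 genes, it recovered 200 of 200 changes of 0.5 (log2) for dose, 184 of 200 for day 10 minus day 1 and 169 of 200 for days 1 and 10 minus control, with 15, 5 and 8 false calls. Every simulated gene had the same normal noise, set at the median residual size, whereas real genes differ in spread. Recovery can thus be higher than for real genes. The number of arrays limits the precision.

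The genes, the lists and the tests were chosen with earlier results of these data known. Any of the 97 genes could be named within its role. The rule asked for values on all 7 arrays for the 25 widest gaps; other genes given on all arrays were picked after their values had been seen, as were the examples from the lists. It also named the 3 genes on either side of the boundary, the ends of the day 3 dose difference and genes whose probes disagreed most. Roles were assigned after the values had been seen. Alternatives are given in the closing section.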

Additional observations from a re-analysis of the deposited data

How the results depend on the processing

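The 97 genes were below all other arrays on day 3 in the deposited values and after median scaling too, with median gaps of 0.38 and 0.36 (0.35 as reported), and 94 of 97 with the mean of all probes of a gene (median gap 0.33). Which genes reached the widest 100 depended more on the processing: lists rebuilt from deposited values, median scaling and the mean of all probes shared 71, 73 and 81 of the 97, and one from the brighter probes shared 68, all of the 97 that it could hold. Leaving out each array in turn left 47 to 89 shared, and fewest without the day 3 array at 1250 mg/kg (60) or at 50 mg/kg (47). Leaving the named families out before ranking gave 100 genes with all 97 among them. For day 10 minus day 1, 2 of the 97 were called in the deposited values (Ddb1 and Pgam2), 1 after median scaling, 1 among the brighter probes and 1 without the day 3 arrays (Ddb1 each time). With no intensity trend, no dose block, the mean of all probes, or without the control array (a fit added after seeing the data) 0 were called. For dose, and for days 1 and 10 minus control, every alternative run called 0 of the 97. Counts over all genes moved more. For day 10 minus day 1 they were 466 (deposited values), 436 (median scaling), 314 (no day 3 arrays) and 109 (mean of all probes), beside 174. For dose they were 45, 31 and 7 without day 3, 10 and 1, 2 among the brighter probes, and 0 with no day block or the mean of all probes, beside 13. For days 1 and 10 minus control they were 7 to 61 when 1 treated array was left out, 2 in deposited values, 5 after median scaling and 1 among the brighter probes, beside 0. The causes were not tested. No paired analysis was possible because no group has a second array to pair by replicate number; the day and dose blocks of the model pair arrays by condition.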
